A study of Mus musculus with 10 samples.

Results

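The 10 genes described here act in the making of piRNAs. Some drive transcription of the precursor loci, and others cut, trim or modify the RNA or assist its processing and loading. The genes are Mybl1, Tcfl5 and Btbd18 on the transcription side and Pld6, Asz1, Gpat2, Exd1, Fkbp6, Pnldc1 and Henmt1 on the processing side. They were chosen by name and function, and each name matched 1 gene of the 55401 in the table, so 10 of 10 were found. All 10 also passed the filter on low counts. RNA came from round spermatids, the haploid cells that follow meiosis, of adult male CD1 mice with no genetic change named. The testes of anaesthetised mice touched water held at 33 °C in the control group or at 42 °C in the heat group for 30 minutes. Isoflurane anaesthesia was given in both groups, and both were killed after waking. There were 5 libraries at 33 °C and 5 at 42 °C, and the title of the study names a loss of piRNAs after heating as its subject.

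piRNAs are small RNAs of germ cells that guide PIWI proteins to transposon and other transcripts. In pachytene spermatocytes, long precursors are transcribed from dedicated loci under MYBL1. The precursors are cut at the surface of mitochondria, loaded onto PIWI proteins, trimmed at the tail end and capped there with a methyl group. The machinery is best known from spermatocytes, and round spermatids carry piRNAs and the PIWI protein MIWI into the haploid phase. The libraries measure RNA of the genes that encode this machinery, and small RNAs were not analysed here.

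Promoter windows were read to show what the starts of these genes have in common. RefSeq windows of 300 bases (250 before and 50 after the start, GRCm38.p6) were matched for 8 of the 10 genes. Mybl1 and Pnldc1 had no entry. Both strands were searched for CAGTT and CCGTT, which are forms of the core that MYB proteins bind, and for the E-box CACGTG, a site of helix-loop-helix factors such as TCFL5. Windows of Tcfl5 and Fkbp6 are shown because these 2 genes had the most such matches, which are in capitals. Fkbp6 has 2 annotated starts, and the window of the first is printed. Tcfl5 lies on chromosome 2, minus strand, window chr2:180642642-180642941, and Fkbp6 on chromosome 5, minus strand, window chr5:135349995-135350294.
Tcfl5: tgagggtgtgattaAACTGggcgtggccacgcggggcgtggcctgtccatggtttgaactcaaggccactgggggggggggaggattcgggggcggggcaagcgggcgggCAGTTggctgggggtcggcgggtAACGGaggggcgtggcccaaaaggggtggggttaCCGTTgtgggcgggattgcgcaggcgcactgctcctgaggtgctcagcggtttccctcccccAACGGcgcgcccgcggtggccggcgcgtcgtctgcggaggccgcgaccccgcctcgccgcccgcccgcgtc
Fkbp6: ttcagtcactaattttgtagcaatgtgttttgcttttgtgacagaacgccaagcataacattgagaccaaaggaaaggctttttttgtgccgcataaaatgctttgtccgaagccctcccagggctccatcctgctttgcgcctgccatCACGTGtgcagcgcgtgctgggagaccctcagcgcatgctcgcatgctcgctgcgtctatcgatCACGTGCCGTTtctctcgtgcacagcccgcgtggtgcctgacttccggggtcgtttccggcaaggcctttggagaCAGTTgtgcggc

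The Tcfl5 window held 2 CAGTT and 3 CCGTT matches and no CACGTG. The Fkbp6 window held 2 E-boxes, the second of which directly abuts a CCGTT match, and 1 CAGTT match. The window of the second Fkbp6 start overlaps the first, and held 1 CAGTT, 2 CCGTT and 2 E-box matches. Among the other 6 genes, Gpat2 had 1 CAGTT match and Pld6 had 1 CCGTT match at one annotated start and 1 E-box at its second start. Btbd18, Henmt1, Exd1 and Asz1 had none of the 3. Of all 32851 windows, 44.8% held CAGTT, 17.4% CCGTT and 7.15% CACGTG, so CAGTT matches are common and those of the other 2 less so. A further sequence, CACGCG, was searched on both strands and is not in capitals. It had 1 match in the Tcfl5 window, 1 at the first Pld6 start and 2 at each Fkbp6 start. No window of the other genes held it, against 9.27% of all windows. The heat shock motif GAANNTTC was in the windows of Hspa1a and Hspa1b, in 7.86% of all windows, and in none of the windows of the 8 genes. These are matches of letters and not measured binding sites.

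The level of the 10 genes spanned a wide range in round spermatids. Levels between genes are compared as CPM (counts divided by TMM-scaled library size, as edgeR computes them) per kb of annotated exon. Tcfl5 was the highest with a mean of 120 CPM per kb (range 90.1 to 137 over the 10 libraries). Mybl1 followed with a mean of 18.9 (11.4 to 28.1) CPM per kb, then Pld6 with a range of 10.5 to 18.3 and Henmt1 with a mean of 12.8 (8.70 to 15.3). Gpat2 had 9.12 (6.92 to 10.7), Asz1 5.46 (4.57 to 7.09), Exd1 4.10 (3.24 to 5.45) and Fkbp6 2.86 (2.34 to 3.94) CPM per kb. The lowest were Pnldc1, at 1.17 (0.720 to 1.60), and Btbd18, at 0.305 (0.210 to 0.411) CPM per kb.

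The order was nearly the same in every library. Tcfl5 stood 6.34 times above Mybl1 with no overlap of their ranges. Pnldc1 was also apart from both its neighbours, 2.44 times below Fkbp6 and 3.84 times above Btbd18. From Mybl1 down to Fkbp6 the ranges of neighbouring genes overlapped. Even there, Henmt1 was above Gpat2, Gpat2 above Asz1 and Exd1 above Fkbp6 within each of the 10 libraries. Mybl1 was above Pld6 and Pld6 above Henmt1 in 9, and Asz1 was above Exd1 in 8. With the length of the longest transcript in place of all annotated exons, Tcfl5 rose to 171 CPM per kb and Henmt1, at 17.2, came above Pld6, at 15.1.

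Family relatives that do other work were measured for 6 of the genes. Mybl1 was higher per kb than Mybl2, a cell cycle MYB factor (6.46 CPM per kb, range 5.19 to 8.92), and Myb itself had 19 counts in all libraries together. Pld6 was above every other PLD gene listed, the next being the lysosomal Pld3 at 4.20 (2.66 to 5.42) CPM per kb. Gpat2, in contrast, was far below Gpat4, an acyltransferase of glycerolipid synthesis, at 56.2 (44.9 to 63.5). It overlapped with Gpat3 at 10.8 (7.62 to 15.3), and Gpam was low at 0.131 CPM per kb. Fkbp6 was below the FKBP genes Fkbp4 (161), Fkbp1a (92.3) and Fkbp8 (16.3 CPM per kb), and above Fkbp2 (1.01) and Fkbp5 (0.938). Exd1 and Exd2 overlapped (Exd2 3.43, range 2.36 to 4.66 CPM per kb). Parn, a deadenylase of the same family as Pnldc1, had 2.09 (1.27 to 3.05) CPM per kb.

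**Figure D1:**
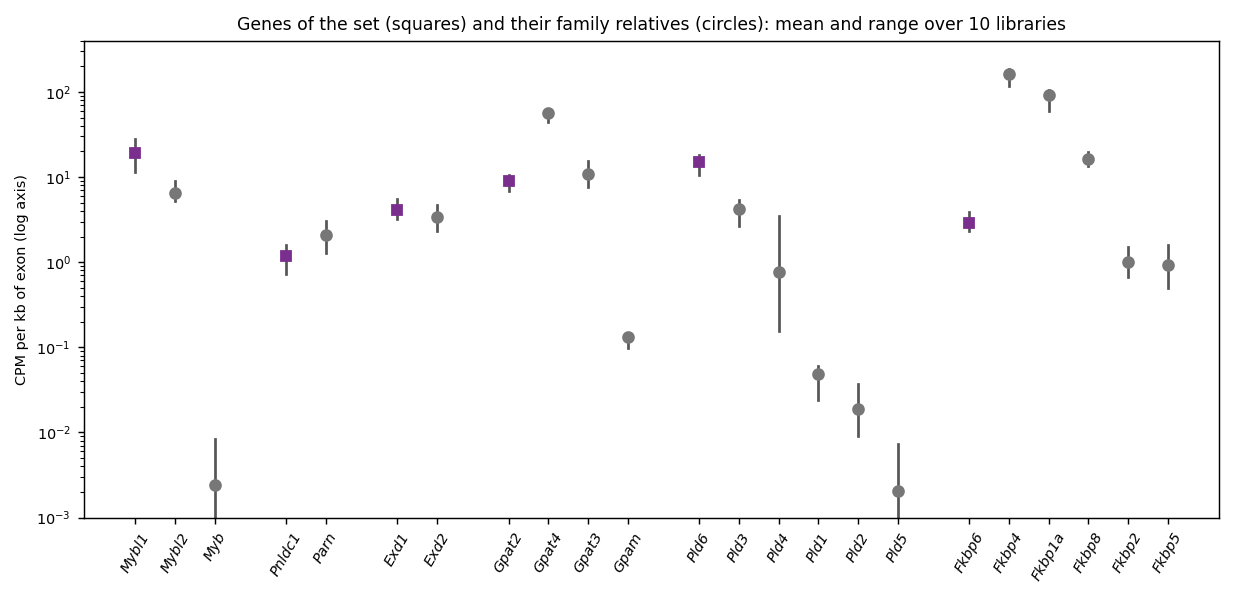
Mean level (squares, genes of the set; circles, family relatives) in CPM per kb of exon on a log axis, with lines for the range over 10 libraries; lines that leave the plot at the bottom reach 0. Mybl1 and Pld6 lie above their relatives, and Gpat2 and Fkbp6 lie below their most abundant ones.

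None of the 10 genes passed the test between 42 °C and 33 °C, and all 10 fitted differences were below 0. The lowest were Mybl1 (fold 0.740), Pnldc1 (0.758), Exd1 (0.782) and Henmt1 (0.828), and Asz1 (0.998) was nearest to 1. In the edgeR quasi-likelihood test over 26025 features, 0 of the 10 had an adjusted p under 0.05, against 0.0922% of all features called, 0.00384% lower and 0.0884% higher. DESeq2 and limma voom called 0 of the 10 as well. At an unadjusted p under 0.05, 3 of the 10 were lower in edgeR (Mybl1, Pnldc1 and Exd1) and 0 higher, against 2.94% of all features lower and 8.56% higher. That count was 0 without 33 °C replicate 2 or 4, 0 with the replicate number as a block, and between 1 and 4 in the other fits. The median log2 fold change of the 10 was -0.22, against -0.01 over all features and -0.09 over the 12401 protein-coding genes with a mean of at least 1 CPM. Without 33 °C replicate 2 these medians were -0.13 for the 10, 0.03 for all features and -0.03 for the coding genes. A log2 fold change under 0 was found for 51.1% of all features and for 64.2% of those coding genes. In bulk RNA of a cell preparation, fewer cells of a type and less RNA per cell cannot be told apart.

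**Figure D2:**
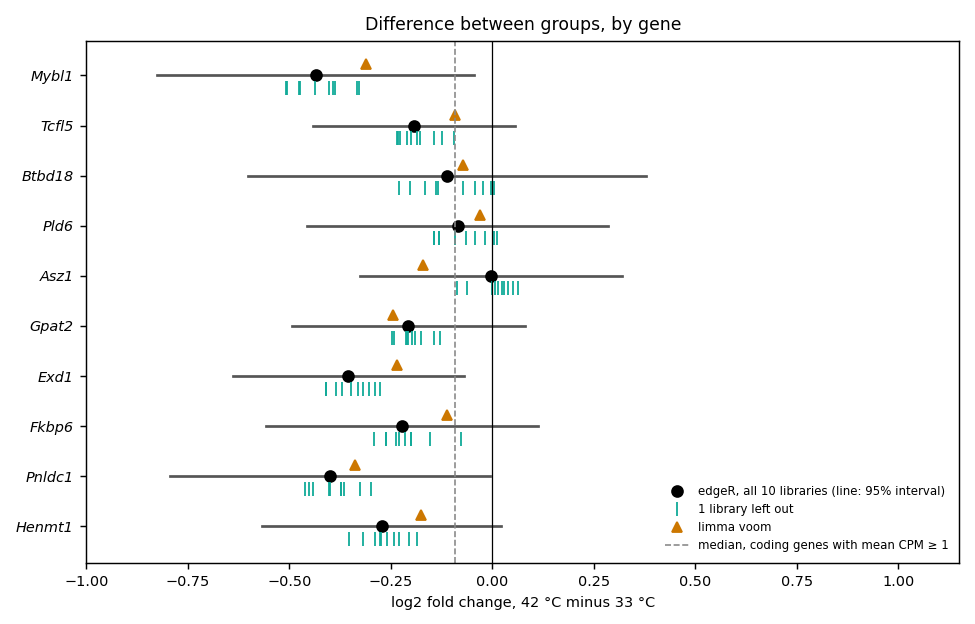
Log2 fold change at 42 °C minus 33 °C for each gene (black points, with 95% intervals of the edgeR fit as lines), with the value after leaving out each library in turn (ticks) and by limma voom (triangles); the dashed line is the median of coding genes, at -0.09. Mybl1, Exd1 and Pnldc1 have intervals below 0, and no gene passed after adjustment over all features.

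Mybl1 (A-MYB, the main activator of pachytene piRNA loci and of many meiotic genes, ENSMUSG00000025912, chromosome 1, 9667415 to 9700209, GRCm38) showed the lowest fold of the set in edgeR. With limma voom Pnldc1 was lower (-0.34, against -0.31 for Mybl1). At 33 °C replicates 1 to 5 had 105, 118, 133, 152 and 80.4 CPM, and at 42 °C they had 104, 85.5, 95.9, 61.4 and 88.3 CPM. Of the 33 °C libraries 4 lay above every 42 °C library, and the overlap came from 33 °C replicate 5. The means were 118 ± 27.2 and 87.0 ± 16.0 CPM (SD, n = 5 each). The log2 fold change was -0.44 (SE 0.18, 95% interval -0.83 to -0.04, adjusted p = 0.414 by edgeR, from 0.116 to 0.799 over all fits). Only 1.6% of coding genes with a mean of at least 1 CPM had a lower fitted value. Leaving out 1 library moved it between -0.51 and -0.33.

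Tcfl5, a helix-loop-helix factor that acts with MYBL1 at piRNA loci (ENSMUSG00000038932, chromosome 2, 180621956 to 180642708), was among the more abundant RNAs. Its mean CPM was above that of 97.3% of tested coding genes. At 33 °C the 5 libraries had 388, 435, 368, 416 and 418 CPM, and at 42 °C they had 394, 285, 391, 340 and 364 CPM. The lowest was 42 °C replicate 2, and 3 of the 33 °C libraries were above all those at 42 °C. The means were 405 ± 26.7 and 355 ± 44.7 CPM (SD, n = 5 each), with a log2 fold change of -0.19 (SE 0.11, adjusted p = 0.493 by edgeR). Without 42 °C replicate 2 the value was -0.09, without 33 °C replicate 2 it was -0.12, and with limma voom -0.09. Its 3′ end shares 234 exonic bases with Col9a3 on the opposite strand, a gene of 8.47 CPM.

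Btbd18, a nuclear protein needed for elongation of transcription at a subset of pachytene piRNA loci (ENSMUSG00000086598, chromosome 2, 84659079 to 84668780), was the least abundant of the set. Its libraries held 57 to 131 counts, where counting error alone is 13.2% at the lowest. It ranged from 0.741 to 1.45 CPM at 33 °C and from 0.829 to 1.28 CPM at 42 °C, so the 42 °C range lay inside the other. The log2 fold change was -0.11, with a 95% interval of -0.60 to 0.38. The whole gene lies within the span of Gm28635 on the opposite strand, which had 36.4 CPM and shares no exonic bases with it.

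Among the factors at the mitochondrial surface no clear difference between the groups was seen. Pld6 encodes the endonuclease that cuts precursors (MitoPLD, chromosome 11, 59783897 to 59787645). The 33 °C libraries lay between 20.5 and 32.2 CPM, those at 42 °C between 18.4 and 31.4 CPM, and its log2 fold change was -0.09 (95% interval -0.46 to 0.29). Asz1 encodes GASZ, a scaffold protein that ties piRNA factors to mitochondria (chromosome 6, 18050964 to 18109061). It had 12.9 to 18.4 CPM at 33 °C. At 42 °C replicate 2 had 20.1 CPM and the other 4 had 13.6 to 14.9 CPM. Its log2 fold change was -0.00 (95% interval -0.33 to 0.32), a fold between 0.798 and 1.25. The value was above 0 in 15 of the 21 alternative fits, and -0.17 with limma voom.

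Gpat2, an acyltransferase family protein of the outer mitochondrial membrane that binds the PIWI protein MILI (chromosome 2, 127425199 to 127436092), differed by a little more. At 33 °C replicates 1 to 4 had 25.8 to 28.0 CPM and replicate 5 had 19.6 CPM. All 5 libraries at 42 °C, from 18.2 to 24.3 CPM, were below those 4. The log2 fold change was -0.21 (SE 0.13, 95% interval -0.49 to 0.08, adjusted p = 0.512 by edgeR), and -0.13 without 33 °C replicate 2.

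Among the partners of PIWI and tudor proteins, Exd1 had the smallest p of the set. EXD1 is an RNA-binding partner of TDRD12 (ENSMUSG00000048647, chromosome 2, 119516505 to 119547627). At 33 °C the 5 libraries had 23.7, 30.4, 28.4, 32.9 and 23.5 CPM, and at 42 °C they had 24.9, 20.3, 23.5, 19.6 and 20.4 CPM. All but 1 of the 42 °C libraries were below every 33 °C library, and replicate 1 was the exception. For 42 °C replicate 3 this was nearly a tie, at 23.507 CPM against 23.538 CPM in 33 °C replicate 5. The means were 27.8 ± 4.14 and 21.7 ± 2.32 CPM (SD, n = 5 each), and the log2 fold change was -0.35 (SE 0.13, 95% interval -0.64 to -0.07). The unadjusted p was 0.0186 and the edgeR adjusted p 0.386, from 0.155 to 0.799 over all fits. Exd1 shares its promoter region with Chp1, which starts 70 bases away on the opposite strand. Chp1 had 10.1 ± 1.75 and 9.52 ± 0.906 CPM (SD, n = 5 each), a log2 fold change of -0.08 (95% interval -0.40 to 0.24).

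Fkbp6 encodes an immunophilin that works with HSP90 in the loading of piRNAs (chromosome 5, 135291704 to 135350044). The 33 °C libraries lay between 4.63 and 6.90 CPM and those at 42 °C between 4.11 and 5.45 CPM, with 33 °C replicate 2 the highest. The log2 fold change was -0.22 (SE 0.15, adjusted p = 0.537 by edgeR), and -0.08 without 33 °C replicate 2.

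The enzymes that finish the tail end of a piRNA were both lower in mean at 42 °C. For both, the ranges of the groups overlapped, and neither passed after adjustment. Pnldc1 encodes the exonuclease that trims precursors to length (ENSMUSG00000073460, chromosome 17, 12888729 to 12910230). Its 33 °C libraries had 3.57, 3.46, 3.82, 4.27 and 2.62 CPM, and its 42 °C libraries had 2.98, 2.68, 3.13, 1.92 and 2.72 CPM. As for Mybl1, 4 of the 33 °C libraries were above all at 42 °C and replicate 5 was not. The log2 fold change was -0.40 (SE 0.18, 95% interval -0.79 to -0.01, adjusted p = 0.432 by edgeR). Henmt1 encodes the methyltransferase that protects the trimmed end (ENSMUSG00000045662, chromosome 3, 108940059 to 108960774). Its 33 °C libraries had 36.1, 40.1, 37.6, 40.9 and 33.0 CPM, and its 42 °C libraries had 34.8, 29.6, 37.7, 23.3 and 30.1 CPM. Of the latter 3 were below the 33 °C range and 2 inside it. The means were 37.5 ± 3.20 and 31.1 ± 5.52 CPM (SD, n = 5 each), and the log2 fold change was -0.27 (SE 0.14, 95% interval -0.57 to 0.02, adjusted p = 0.457 by edgeR). Henmt1 shares 392 exonic bases with the antisense gene Gm9857, which had 1.32 CPM.

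**Figure D3:**
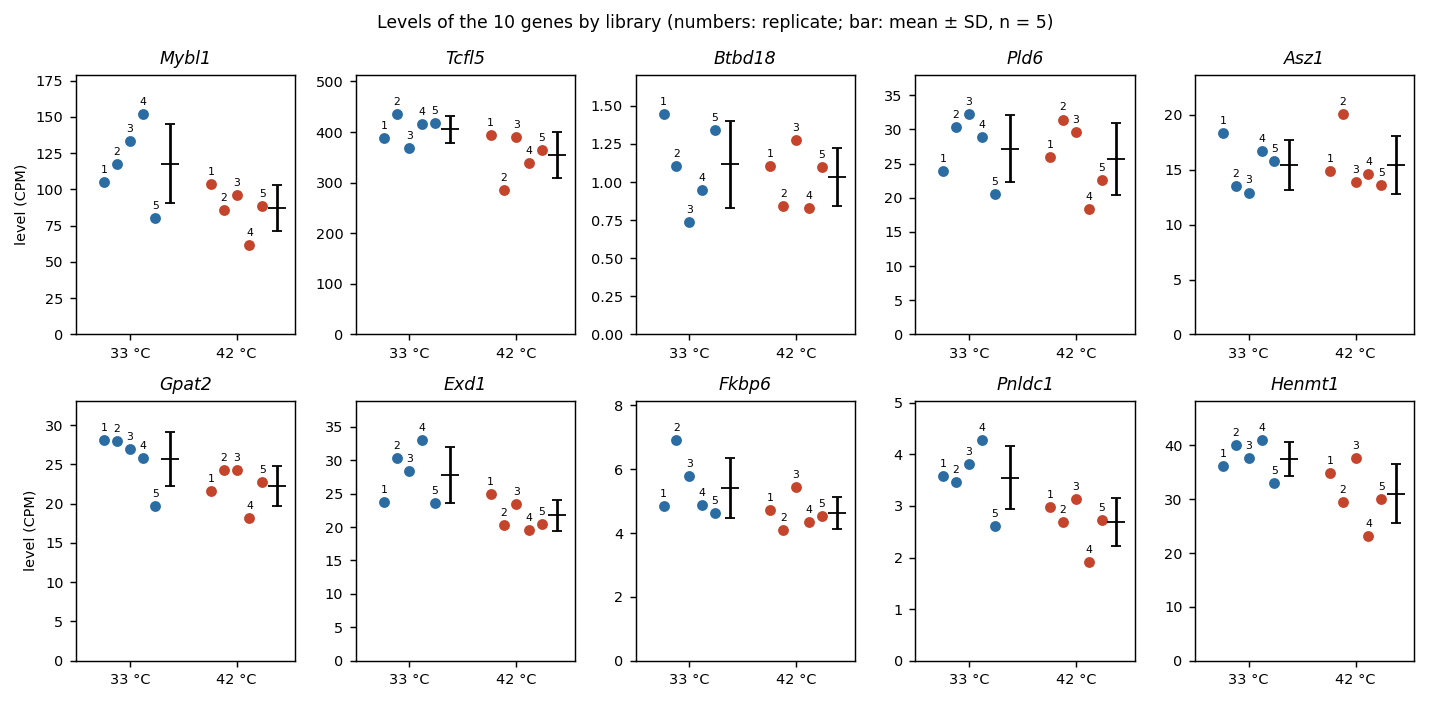
Level of each gene in CPM (vertical axes from 0) in the 5 libraries at 33 °C (blue) and the 5 at 42 °C (red), numbered by replicate, with mean and SD as bars. The groups overlap for all 10 genes; 42 °C replicate 4 is the lowest library for 6 of them.

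The ranges of the groups overlapped for each of the 10 genes. Over all features, 0.68% were lower and 1.32% higher at 42 °C with no overlap. The balance between genes of the set was compared in 3 ratios, chosen after the values were seen. Tcfl5 to Mybl1 in CPM was 3.62 ± 1.00 at 33 °C and 4.17 ± 0.822 at 42 °C, and Henmt1 to Pnldc1 was 10.7 ± 1.29 and 11.6 ± 0.533. Gpat2 to Pld6 was 0.956 ± 0.130 and 0.884 ± 0.106 (SD, n = 5 each). The ranges of the groups overlapped for each ratio. An exact two-sided permutation test of the mean log2 ratio gave p = 0.333, 0.175 and 0.373 (adjusted p = 0.373 for each). The Henmt1 to Pnldc1 ratio stayed between 9.59 and 12.6 in the 10 libraries.

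Parn had a mean of 9.59 ± 2.68 CPM in the control group and of 12.9 ± 2.24 CPM in the heat group (SD, n = 5 each), a log2 fold change of 0.43 (95% interval 0.01 to 0.85, adjusted p = 0.430 by edgeR). Its ratio per kb to Pnldc1 was 0.793 to 2.66 at 33 °C and 1.76 to 4.23 at 42 °C. The highest ratio of each group was in 33 °C replicate 5 and 42 °C replicate 4. This pair was picked after its values were seen and was not tested. Of the 15 relatives tested in edgeR 0 were called. At an unadjusted p under 0.05, 2 were higher, Parn and Fkbp5, and 0 lower, against 8.56% and 2.94% of all features. Fkbp5 had the larger difference of these, a log2 fold change of 0.75 (95% interval 0.23 to 1.26, adjusted p = 0.369 by edgeR).

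The differences between libraries of one group were patterned. In 42 °C replicate 4 all 10 genes were below their own mean over the libraries, and 6 had their lowest value there. At 33 °C, 3 genes were above their mean in replicate 5 and 7 to 9 in each of the other libraries. At 42 °C the number above was 6 in replicate 1, 7 in replicate 3, 3 in replicate 2 and 1 in replicate 5. 33 °C replicate 4 held the highest value of Mybl1, Pnldc1, Henmt1 and Exd1, and 42 °C replicate 4 their lowest.

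Of these libraries, 33 °C replicates 4 and 5 and 42 °C replicate 4 also stood near the ends of the summed level of 17 round spermatid markers. That sum was 3144 CPM in 33 °C replicate 5 and 3251 CPM in 42 °C replicate 4, the highest of each group. In 33 °C replicates 3 and 4, where Mybl1 was highest, it was 1839 and 1847 CPM, the lowest of all. By group it ranged from 1839 to 3144 CPM at 33 °C and from 2197 to 3251 CPM at 42 °C, and 14 of the 17 markers had a log2 fold change above 0 (median 0.29, 0 called by edgeR and 4 at an unadjusted p under 0.05). The other 42 °C libraries with most genes below their mean were not high in this sum. In 42 °C replicate 5, 1 gene was above its mean with a sum of 2396 CPM, and in 42 °C replicate 2, 3 genes were, with 2197 CPM, the lowest sum of its group. The part of this in the differences of Mybl1 and Pnldc1 was not tested. The fit was also run with neither 33 °C replicate 5 nor 42 °C replicate 4. There Mybl1 had -0.40 (adjusted p = 0.225 by edgeR), Exd1 -0.34 (0.315), Pnldc1 -0.35 (0.323) and Henmt1 -0.19 (0.545), and the number of the 10 called was again 0.

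**Figure D4:**
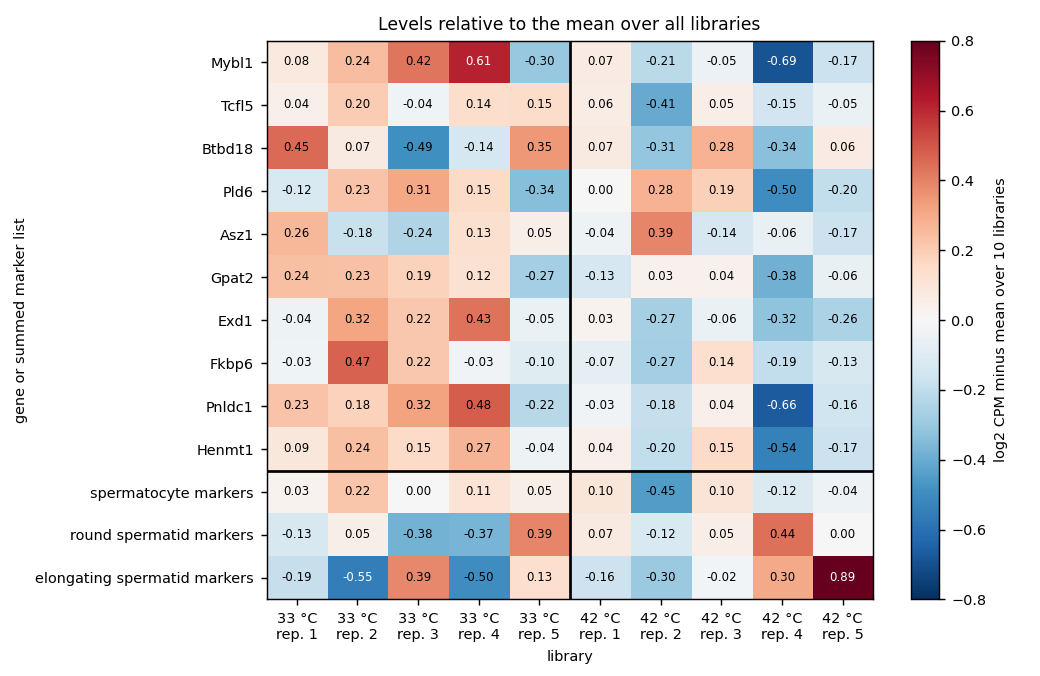
Log2 CPM of each gene, and of 3 summed marker lists under the line, minus its mean over the 10 libraries (colour and printed value). 42 °C replicate 4 is below the mean for all 10 genes and is the highest for round spermatid markers, at 0.44.

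Markers of spermatocytes, the cells in which MYBL1 acts on the precursor loci, lay near the background of coding genes. Of 29 markers 20 had a log2 fold change under 0 and 9 above, with a median of -0.14, against 64.2% under 0 and a median of -0.09 for coding genes with a mean of at least 1 CPM. None was called (2 at an unadjusted p under 0.05). Their summed level ranged from 4804 to 5591 CPM at 33 °C and from 3524 to 5148 CPM at 42 °C, and the lowest value was in 42 °C replicate 2, with 4433 CPM in 42 °C replicate 4. Ldhc alone was the largest part of this sum. Its means were 2654 CPM at 33 °C and 2433 CPM at 42 °C, of 5090 and 4581 CPM for the whole list. Markers of elongating spermatids were positive for 16 of 16, with a median of 0.36 (0 called, 3 at an unadjusted p under 0.05), and summed to 3235 to 6197 CPM at 33 °C and 3858 to 8812 CPM at 42 °C. The part of these lists in the results on the 10 genes was not tested. Of 15 spermatogonial markers 8 were under 1 CPM, and the 12 tested had a median of 0.05. Their sum, 872 to 1063 CPM and 571 to 1002 CPM, was nearly all Dmrtb1, with means of 936 and 804 CPM, and the next highest was Id4, at 9.21 and 8.29 CPM.

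Markers of somatic cells were low. At 33 °C and 42 °C the summed markers were 3.18 to 12.6 and 6.03 to 17.6 CPM for Sertoli cells, 3.38 to 20.6 and 3.10 to 8.15 CPM for Leydig cells, and 13.7 to 26.5 and 15.6 to 20.7 CPM for peritubular and stromal cells. They were 7.27 to 11.1 and 6.93 to 9.37 CPM for macrophages and leukocytes and 12.5 to 24.8 and 19.9 to 27.1 CPM for endothelium. Erythroid markers summed to at most 0.375 CPM. No marker of these lists was without a count in all libraries.

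The rest of the pathway was set beside the 10 genes from a list of 32 others, of which 30 were tested. None was called by edgeR in either direction, against 0.0922% of all features, and 0 had an unadjusted p under 0.05. DESeq2 and limma voom called 0 too. The log2 fold change was under 0 for 19 of the 30, with a median of -0.11 and a range of -0.29 to 0.48. These are near the 64.2% and -0.09 of the coding genes. The 4 of smallest p were Gtsf1l, Stk31, Ddx4 and Piwil1. Gtsf1l, a paralog of the PIWI cofactor GTSF1, was the one of these with a higher mean at 42 °C, from 127 ± 48.1 to 173 ± 41.6 CPM (log2 0.45, SE 0.23, adjusted p = 0.464 by edgeR). Stk31, a tudor domain kinase, had -0.24 (SE 0.13), the germ cell helicase gene Ddx4 -0.24 (SE 0.15) and Piwil1, which encodes MIWI, -0.29 (SE 0.19). Nanos2 and Dnmt3c, which act in the fetal or spermatogonial germ line, had 1 and 62 counts in all libraries and were not tested.

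Genes whose levels ran most like those of the set were found among 9199 coding genes with a mean of at least 5 CPM. Likeness was the mean absolute difference of log2 CPM, after centring each gene over the 10 libraries. Mybl1 was nearest to Arhgap11a (difference 0.05) and to Lef1, a WNT pathway transcription factor (0.07), with a median of 0.30 over all candidates. Within the set it was nearest to Pnldc1 (0.08). Pnldc1 was nearest to the adaptor gene Crkl (0.05) and to Cirbp, the cold-inducible RNA-binding protein (0.06). Henmt1 was nearest to Meioc, a regulator of meiotic entry (0.04), and to Taf1b (0.05), and Tcfl5 to the kinase gene Mok (0.02) and Zfp91 (0.03). Exd1 ran close to Chic2 (0.06). The nearest genes of Gpat2 were Bfar (0.04) and Emsy (0.05), and those of Fkbp6 were Cic and Mfsd12 (0.06 each). Pld6 ran nearest to Tmem170 and Lsm14b (0.06 each) and Asz1 to Ccdc138 and Tbc1d31 (0.06 each). Btbd18 had no close match, at 0.11 for Dek and 0.12 for Rgsl1.

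Among the series as a whole, total counts were 60623568 to 117723075 per library. The lowest was 42 °C replicate 2, in which transposable elements took 16.2% of counts, against 4.62% to 9.07% in the other 9. Of 8 inducible heat shock genes 1 was called, Hspa1a, an inducible HSP70 gene, which rose from 0.278 ± 0.0987 to 2.14 ± 1.04 CPM (log2 2.94, adjusted p = 0.0106 by edgeR). Hspa1b, its near-identical neighbour, had 2.40 ± 1.06 and 6.45 ± 3.16 CPM (log2 1.43, adjusted p = 0.262 by edgeR), and reads may be divided unevenly between them. Of the 8 genes 3 had a log2 fold change under 0, Dnajb1 (-0.24), Hsp90aa1 (-0.21) and Hspb1 (-0.36). The summed level of the 8, mostly Hsp90aa1 and Dnajb1, had a mean of 2181 ± 210 CPM in the control group and of 1910 ± 332 CPM in the heat group (SD, n = 5 each). Without 42 °C replicate 2 the log2 fold changes of the 10 genes were between -0.40 (Mybl1) and -0.02 (Btbd18).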

How the data were processed

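Total RNA of round spermatids was sequenced in 10 libraries, 5 per group by sample title, after removal of ribosomal RNA with a stranded kit, per the labels' protocols. The titles give a group and a number and do not name the animals. Values of 42 °C replicates 1 and 3 were close. Summed spermatocyte markers were 5135 and 5148 CPM, and summed round spermatid markers 2511 and 2481 CPM. Transposable elements took 5.98% and 5.79% of their counts. Whether these libraries come from separate animals is not stated, so n = 5 counts libraries. A fit with them summed is among the alternatives. The authors deposited raw read counts per gene and per transposable element subfamily, with no normalization. GRCm38 and mm10 are listed as builds, and DRAGEN, Trim Galore and cutadapt as tools, per the submitters' processing notes. How reads were counted (tool, strand, multiple alignments) is not given in the sources used here, so overlapping genes may share reads. Whether the 5 samples of a group were prepared on separate days is not stated, and no batch is given in the labels.

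Features were kept by filterByExpr (minimum count 10, minimum total 15, smallest group 5), which left 26025 features. TMM scaling and the quasi-likelihood test of edgeR 4.0.16 (R 4.3.3) were applied with the group as the sole term, and p-values were Benjamini-Hochberg adjusted over all features, with a threshold of 0.05. Intervals are at 95%. CPM use the same TMM scaling of the deposited counts. DESeq2 1.42.0 and limma 3.58.1 (voom with sample weights) were alternatives. Exon lengths were the union of exons in GENCODE M21, whose positions matched those of the table for 99.4% of 55141 shared identifiers. The 10 genes were named whatever their result, with the 4 pathway genes of smallest p, all listed relatives, Hspa1a, Hspa1b, overlapping or adjacent genes and the 2 genes most alike in pattern. One gene that this rule names is not reported here. The genes and lists were chosen with earlier results of these data known. Ddx39a is listed in the table as Ddx39.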

Additional observations from a re-analysis of the deposited data

Results flagged for a closer look

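Of 20 groups of 5 libraries (10 genes at 2 temperatures), 2 held a library far from the other 4, where chance gives about 1 in 20. Asz1 had 20.1 CPM in 42 °C replicate 2, and this gap took up 0.805 of the range of its group. Gpat2 had 19.6 CPM in 33 °C replicate 5, with a gap of 0.730 of the range. Without those libraries the log2 fold change was -0.09 for Asz1 and -0.25 for Gpat2.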

How the results depend on the processing

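The number of the 10 genes called was 0, and that of the 30 other pathway genes was 0, in the main edgeR fit and in all 21 alternatives, of which 3 were chosen after seeing the data. The number of features called over the table, 24, was 288 with DESeq2, 153 with limma voom, 76 with no filter on low counts, 2 with a mean of at least 1 CPM and 4 with the replicate block. It was 12 (without 33 °C replicate 4) to 22 (without 33 °C replicate 3) when 1 library was left out. It was 111 with limma voom and 211 with DESeq2 without 42 °C replicate 2, and 5 with neither 33 °C replicate 5 nor 42 °C replicate 4. The cause was not tested. The direction was the same in 190 of 210 values of the 10 genes, and 7 genes kept theirs in all 21. For Asz1 it turned to 0.0101 with DESeq2, 0.0104 with its size factors in edgeR, 0.0457 with scaling from genes only, 0.0484 with no filter and 0.0336 with the filter at 1 CPM. The lowest values of Asz1 were -0.1716 with limma voom and -0.1790 with limma voom without 42 °C replicate 2. It was 0.0185 when 42 °C replicates 1 and 3 were summed, and 0.0686 with neither 33 °C replicate 5 nor 42 °C replicate 4. Leaving out 1 library gave -0.0860 to 0.0633 for Asz1, -0.1447 to 0.0124 for Pld6 and -0.2292 to 0.0036 for Btbd18. Pld6 had 0.0207 with limma voom without 42 °C replicate 2, and Btbd18 0.0723 with neither 33 °C replicate 5 nor 42 °C replicate 4. Limma voom also gave smaller differences for Exd1 (-0.23), Henmt1 (-0.18) and Fkbp6 (-0.11). With the replicate block no gene of the 10 had an unadjusted p under 0.05, and samples with the same number did not deviate together (correlations of -0.41 to -0.12), so the numbers are read as names only. Depth limits Btbd18 most, at 57 to 131 counts per library.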
